A study of Sus scrofa with 12 samples.

Results

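Red blood cells carry a small set of miRNAs and messenger RNAs that a hepatocyte does not need, and their levels in a liver sample were taken as signs of blood in the tissue. The members were chosen by name: ssc-miR-144, ssc-miR-451 and ssc-miR-486 among the miRNAs, and HBB, ALAS2 and AHSP among the genes. Of these 6 names 5 were found among the 32105 miRNAs and genes listed, 3 of 3 miRNAs and 2 of 3 genes, and all 5 passed the filter on low values. AHSP was not analysed here.

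The livers came from 3 Jinhua (JH) pigs, a Chinese breed that deposits much fat and carries the label "experiment", and from 3 Landrace (LD) pigs, a lean breed labelled as control. All 6 animals were uncastrated males of 70 days, with no treatment or transgene named, and each gave 1 small RNA library and 1 mRNA library of the same name. The tissue was frozen at once, and the methods mention no rinse or perfusion that would wash blood out of it. A breed difference in these bulk samples cannot be told apart from other differences between the animals, and fewer red cells cannot be told apart from less RNA per red cell.

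In mammals the adult red cell has lost its nucleus, and what RNA it holds was made before, mainly in the bone marrow. miR-144 and miR-451 are cut from 1 common transcript that GATA1 switches on in erythroid cells, and miR-451 is matured by the slicing activity of Argonaute 2 in place of Dicer. The gene of miR-486 is linked with ANK1, the ankyrin gene of the red cell skeleton. HBB encodes the beta chain of adult haemoglobin, ALAS2 the first and rate-limiting enzyme of heme synthesis in red cell precursors, and AHSP a chaperone of free alpha chains.

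The RefSeq gene order of assembly Sscrofa11.1 showed the same arrangement in the pig. MIR451 and MIR144 were direct neighbours, between ERAL1 and FLOT2, and MIR486-1 was next to ANK1.

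The small RNA values are RPM, reads scaled to the clean reads of the library, and the steps between low values gave 10672360 to 13932320 clean reads per library, so that 1 read was worth 0.0718 to 0.0937 RPM. The mRNA values are RPKM, reads scaled to gene length and to a library total, which was 5744909 (JH1) to 7914515 reads (LD3). The liver markers fitted the tissue label, with ALB at 27533 to 53893 RPKM and ssc-miR-122 at 147073 to 280427 RPM. RN18S, a ribosomal RNA gene, ranged from 1570 RPKM in JH2 to 62257 RPKM in JH3. Differences are given as JH over LD on the log2 scale from limma, after adding 0.5 RPM or 0.1 RPKM, which understates the change of low genes. A difference passed at a Benjamini-Hochberg adjusted p below 0.05 over all miRNAs or all genes tested.

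HBB was lower in JH and passed the test, with LD 2.62-fold above JH, and ALAS2, HBM and a gene placed beside HBM had fold changes below 0 that did not pass. The 3 erythroid miRNAs had fold changes above 0 in JH, from 0.42 to 0.69, and none passed. Other red cell genes had fold changes on both sides of 0.

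ssc-miR-451 was the most abundant of the 3 miRNAs and stood at rank 46 of the 411 miRNAs by its mean over the 6 libraries. Its level was 1036, 466 and 685 RPM in JH1, JH2 and JH3, against 337, 505 and 546 RPM in LD1, LD2 and LD3. JH1 and JH3 were above all LD pigs while JH2 was below LD2 and LD3, so the breeds overlapped. These values stood for 4493 to 13082 reads, and counting error was small beside the spread between pigs. The means were 729 ± 287 RPM in JH and 463 ± 111 RPM in LD (SD, n = 3 each). The log2 fold change of 0.61 (SE 0.31, 95% interval -0.08 to 1.30) did not pass the limma test, at an adjusted p of 0.224. A two-sided exact permutation test gave p = 0.3, and with 3 pigs against 3 this p cannot fall below 0.1. Without JH1 the fold change was 0.32, and without LD1 it was 0.40.

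ssc-miR-144, its neighbour in the genome, was far lower in every library. It measured 25.1, 6.72 and 10.03 RPM in JH1, JH2 and JH3, and 6.30, 8.57 and 6.96 RPM in LD1, LD2 and LD3. JH1 alone stood well above the rest, and JH2 lay within the LD range. Between 82 and 317 reads were behind each value. The means were 13.9 ± 9.79 RPM in JH and 7.28 ± 1.17 RPM in LD (SD, n = 3 each), and the log2 fold change of 0.69 (SE 0.40, 95% interval -0.20 to 1.59) had an adjusted p of 0.284. Without JH1 it was 0.18, with an adjusted p of 0.674.

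ssc-miR-486 was spread most within LD. The JH1, JH2 and JH3 levels were 59.4, 38.6 and 67.9 RPM, against 26.9 RPM in both LD1 and LD3 and 88.9 RPM in LD2, the highest of all 6 libraries. The LD values thus lay on both sides of every JH value. The reads behind them ran from 359 to 1130. The means were 55.3 ± 15.1 RPM in JH and 47.6 ± 35.8 RPM in LD (SD, n = 3 each), with a log2 fold change of 0.42 (SE 0.43, 95% interval -0.52 to 1.36) and an adjusted p of 0.572. Without LD2 the fold change was 0.99 (adjusted p 0.0655), and without LD1 or LD3 it was 0.13 in both cases.

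**Figure D1:**
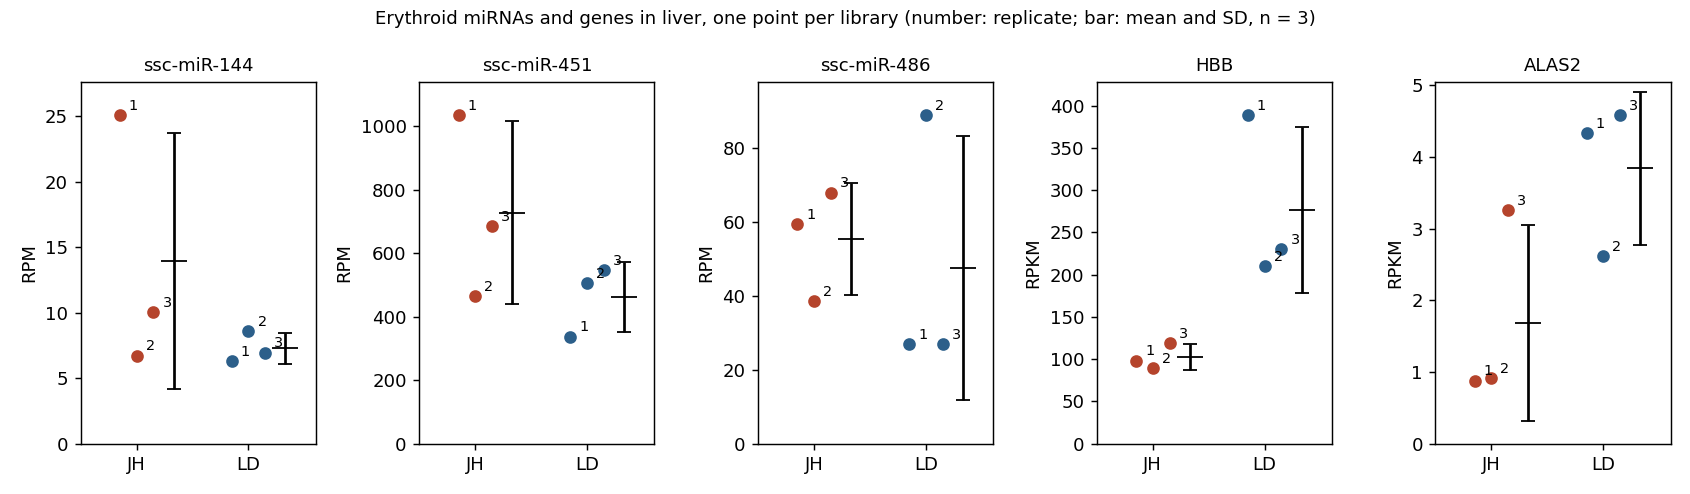
Each panel shows 1 member in the 3 JH and 3 LD livers, with the level in RPM (miRNAs) or RPKM (genes) on a linear axis from 0, a point per library and the mean with its SD. The HBB values of JH, 89.1 to 119 RPKM, lie below all LD values, 210 to 389 RPKM, while the breeds overlap in the other 4 members.

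Of the 241 miRNAs tested, 13.3% passed, 0.83% higher in JH (2) and 12.4% lower in JH (30), and 0 of the 3 erythroid miRNAs passed against this background. The JH values lay wholly above those of LD in 3.73% of miRNAs and wholly below in 29.9%, and the 3 members overlapped. At an unadjusted p below 0.05 the number was 0 of 3 members and 72 of 241 miRNAs. The median log2 fold change of all tested miRNAs was -0.30, and all 3 erythroid miRNAs lay above it. Scaling the libraries to the same median moved that median to 0.09, left 5 miRNAs higher and 5 lower in JH, and gave fold changes of 1.00 for ssc-miR-451, 1.09 for ssc-miR-144 and 0.81 for ssc-miR-486, still without a call, at adjusted p-values of 0.0664, 0.112 and 0.264. Quantile normalization left 1 higher and 5 lower.

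ssc-miR-144 and ssc-miR-451 were correlated across the pigs. Pearson's r of the log2 values was 0.91 over 6 pigs (exact permutation p = 0.00417, adjusted p 0.025 over the 6 relations computed), and Spearman's rho was 0.94 (exact permutation p = 0.0167, adjusted p 0.1). Without JH1 and JH3, the pigs farthest from the median, r was 0.60 over 4 pigs, so the relation rested on those pigs. With the breed means removed r was 0.88. The exact permutation test then shuffled pigs only within each breed and was not passed (adjusted p 0.667). This allows far fewer orders than shuffling all 6 pigs, so that p cannot show whether the relation weakened. The number of ssc-miR-451 reads per ssc-miR-144 read was 41.3, 69.3 and 68.3 in JH1 to JH3 and 53.5, 58.9 and 78.4 in LD1 to LD3, and the breeds overlapped (exact permutation p = 0.8). Among the 240 other tested miRNAs ssc-miR-144 had the pattern most like that of ssc-miR-451, followed by ssc-miR-671-5p (r = 0.91), ssc-miR-129b and ssc-miR-129a-5p, which are listed with identical values (r = 0.86), and ssc-miR-29a (r = 0.86). These r are over the same 6 libraries and share their scaling to clean reads.

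Over all 6 pigs ssc-miR-486 had lower correlations with the other pair, a difference that was not tested. Its r was 0.51 with ssc-miR-451 (exact permutation p = 0.326) and 0.50 with ssc-miR-144 (exact permutation p = 0.351), and it stood at rank 34 in likeness to ssc-miR-451. Without JH1 and JH3 its r with ssc-miR-144 was 0.92 over 4 pigs, above the 0.60 of ssc-miR-144 with ssc-miR-451. The order of these correlations thus depended on single pigs. Without JH1 and LD1 its r with ssc-miR-451 was 0.25 over 4 pigs. LD2 stood apart, with 5.68 reads of ssc-miR-451 per read of ssc-miR-486, against 10.1 to 20.3 in the other libraries.

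HBB, the beta globin gene, was the most abundant red cell messenger among the members and ranked at 393 of all genes by its mean. It measured 98.3, 89.1 and 119 RPKM in JH1, JH2 and JH3, against 389, 210 and 230 RPKM in LD1, LD2 and LD3. All 3 JH pigs lay below all 3 LD pigs, and LD1 stood above the other LD pigs. The reads behind these values were 280, 343 and 457 in JH and 1369, 821 and 902 in LD. The means were 102 ± 15.3 RPKM in JH and 276 ± 98.1 RPKM in LD (SD, n = 3 each). The log2 fold change was -1.39 (SE 0.29, 95% interval -2.04 to -0.73), with an adjusted p of 0.0459 in limma, close to the threshold. The exact permutation p was 0.1, the smallest that 3 against 3 allow.

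The call for HBB depended on single libraries. It was lost without JH1, JH2, LD1, LD2 or LD3 (fold changes -1.37, -1.29, -1.11, -1.56 and -1.49, adjusted p 0.0967 to 0.154) and kept without JH3 (adjusted p 0.0420). With no filter on low values the adjusted p was 0.0673.

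ALAS2, the erythroid heme enzyme, had a low read number and ranked at 8395 of all genes by its mean. It stood at 0.877, 0.910 and 3.26 RPKM in JH1, JH2 and JH3, and at 4.33, 2.62 and 4.59 RPKM in LD1, LD2 and LD3. JH1 and JH2 were below all LD pigs, while JH3 was above LD2. Only 10 to 72 reads were behind each value. The means were 1.68 ± 1.36 RPKM in JH and 3.84 ± 1.07 RPKM in LD (SD, n = 3 each), and the log2 fold change of -1.36 (SE 0.49, 95% interval -2.46 to -0.26) had an adjusted p of 0.189. Without JH3, the JH library with the highest ALAS2, the fold change was -1.95 with an adjusted p of 0.0318.

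Of the 12991 genes tested, 2.39% passed, 1.02% higher and 1.36% lower in JH, beside 1 of the 2 gene members. The JH values lay wholly below those of LD in 12.5% of genes, and in 1 of the 2 members. The median log2 fold change of all genes was 0.04. The ratio of ALAS2 to HBB overlapped between the breeds, and its difference on the log2 scale was -0.05 (exact permutation p = 0.9).

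Alpha globin was looked for beside its relatives. Of the 11 globin names in the list 5 were found, and 2 of these had values high enough to test. The named alpha chain genes were not analysed here. HBM, the mu chain gene of the alpha globin cluster, was at 0.635, 2.12 and 1.65 RPKM in JH1 to JH3 and at 4.63, 2.54 and 2.997 RPKM in LD1 to LD3. All JH lay below all LD, as in 12.5% of genes tested. HBM rested on 2 to 18 reads per library and did not pass (log2 fold change -1.25, adjusted p 0.183). HBE1 and HBZ, the embryonic chain genes, stayed below 1 RPKM in all libraries.

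A gene without a globin name was added after its values were seen. LOC100737768 lies between LOC110259958 and HBM in the RefSeq order of Sscrofa11.1, next to named members of the alpha globin cluster, and what it encodes is not stated in the tables used here. Its level was 119, 205 and 163 RPKM in JH1, JH2 and JH3, against 455, 295 and 264 RPKM in LD1, LD2 and LD3, a range like that of HBB. All JH values were below all LD values, as in 12.5% of genes tested. The log2 fold change was -1.05 (SE 0.30), with an adjusted p of 0.120. HBB over LOC100737768 overlapped between the breeds (exact permutation p = 0.3), and JH2 had the lowest ratio, 0.435, against 0.712 to 0.871 in the other pigs. Of the 4 such unnamed neighbours looked for 2 were found, and the other, LOC100515788 beside HBB, was listed at 0 in all 6 libraries.

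HBQ1, the theta globin gene, had its higher values in JH. It measured 4.34, 0.741 and 0.495 RPKM in JH1, JH2 and JH3, against 0.270, 0 and 0.242 RPKM in LD. These values were 13, 3 and 2 reads in JH and 1, 0 and 1 reads in LD, too few to test.

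**Figure D2:**
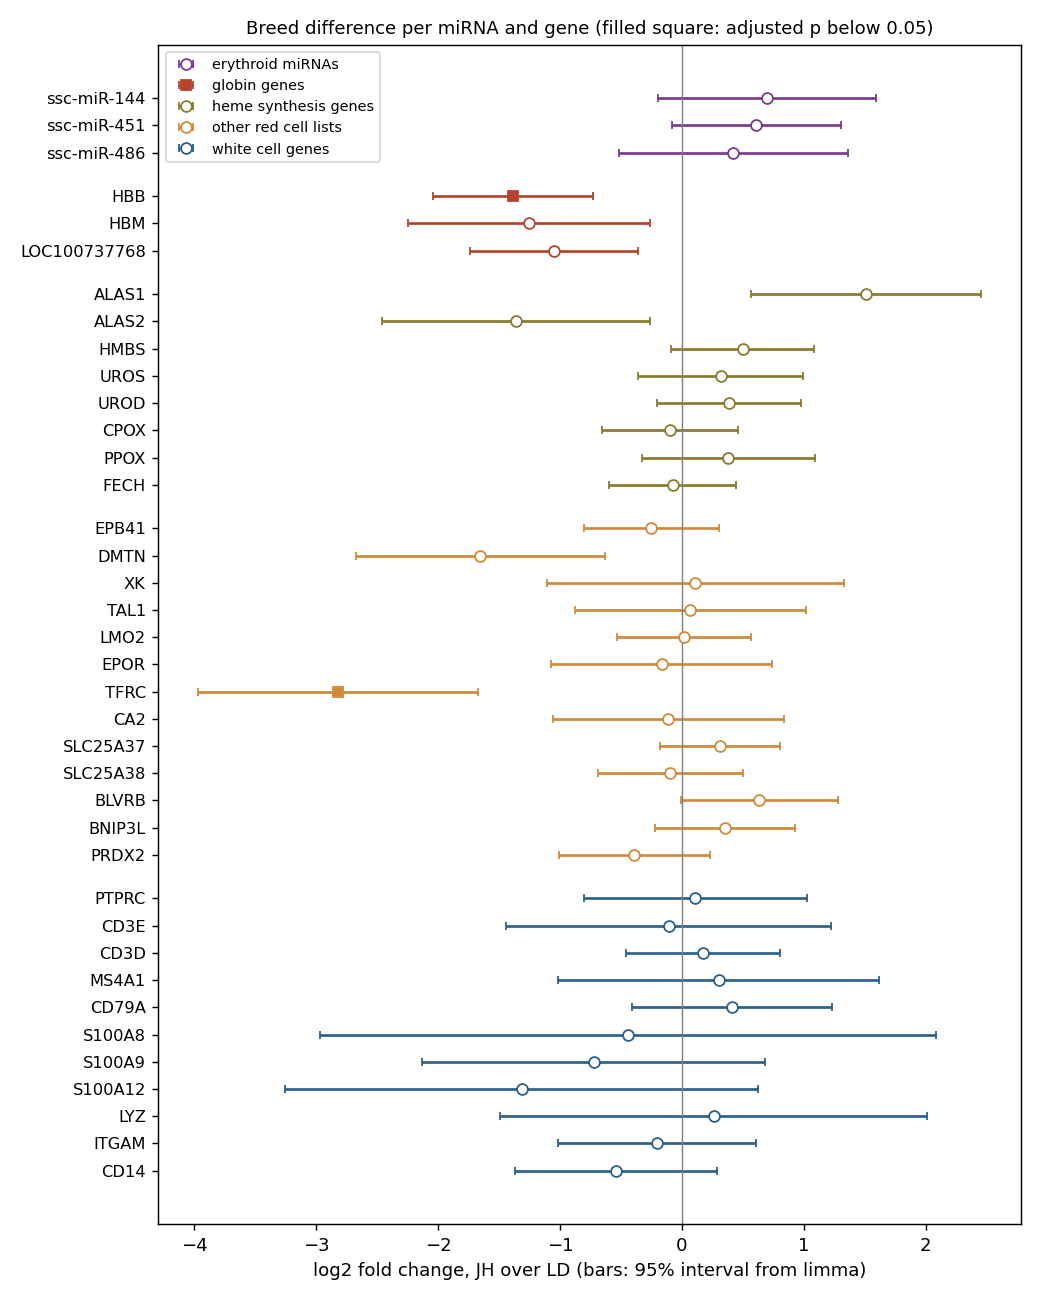
The difference of JH against LD on the log2 scale is plotted with its 95% interval for the 3 erythroid miRNAs and for the tested genes of the globin, heme, other red cell and white cell lists, with filled squares for those past the limma test. LOC100737768, which is in none of these lists, is drawn among the globin genes. HBB and TFRC are the filled squares, both below 0, and the 3 erythroid miRNAs lie above 0 with intervals that reach below it.

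Heme synthesis genes other than ALAS2 serve every cell, and in liver they supply the cytochromes. Of the 9 in the list 8 were found and tested, 0 passed, and the median log2 fold change was 0.35 beside 0.04 over all genes. ALAS1, the form of the first enzyme used outside red cells, had the opposite sign to ALAS2. It was at 621, 437 and 410 RPKM in JH1 to JH3 and at 88.0, 182 and 300 RPKM in LD1 to LD3, with all JH above all LD, as in 10.8% of genes tested. Its log2 fold change of 1.51 did not pass (adjusted p 0.106). The 6 remaining genes had log2 fold changes between -0.10 and 0.50.

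The red cell membrane was barely seen in these libraries. Of 16 genes in the list 12 were found, 3 could be tested and 0 passed, with a median of -0.25. SLC4A1, the band 3 anion exchanger, was at 0.158, 0.117 and 0.0780 RPKM in JH and at 0.298, 0.612 and 0.458 RPKM in LD, which were 3, 3 and 2 reads against 7, 16 and 12. RHAG, the Rh-associated glycoprotein gene, was above 0 in the 3 LD libraries and listed at 0 in the 3 JH libraries. It was too low to test and its reads were not recovered. With no filter its fold change of -1.11 did not pass (adjusted p 0.236). Other genes of the list had a slightly higher mean in JH than in LD, with overlapping values: XK at 0.519 against 0.438 RPKM, EPB42 at 0.252 against 0.198, KEL at 0.131 against 0.0957 and SPTB at 0.0567 against 0.0546. ANK1, the RefSeq neighbour of MIR486-1, was highest in LD2, at 0.303 RPKM against 0.0397 to 0.0864 in the other libraries. DMTN, the dematin gene, had the lowest fold change of the list (-1.65, adjusted p 0.103), with JH at 0.925 to 1.87 and LD at 2.67 to 8.95 RPKM.

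Among factors and receptors of erythroid cells 8 of 9 were found and 4 were tested. Of these 2 had fold changes above 0 and 2 below, with a median of -0.07, and 1 passed, lower in JH, beside 1.36% lower among all genes. This was TFRC, the transferrin receptor by which red cell precursors and many other cells take up iron. It measured 3.87, 3.25 and 9.71 RPKM in JH1 to JH3 and 65.3, 19.1 and 36.8 RPKM in LD1 to LD3. Every JH pig lay below every LD pig in TFRC, as in 12.5% of genes tested. The log2 fold change was -2.82 (SE 0.51, adjusted p 0.0301). The call was lost without JH1, JH2, LD1 or LD3 (fold changes -2.65, -2.52, -2.39 and -2.80, adjusted p 0.0763 to 0.114). It was also lost with no filter on low values (adjusted p 0.0501). GATA1, the factor that drives both the globin genes and the miR-144/451 transcript, was at most 0.181 RPKM in any library. KLF1, the erythroid Krueppel-like factor, was above 0 in LD2 alone, as was CA1, carbonic anhydrase of the red cell. The factors too low to test had fold changes on both sides of 0 in the fit with no filter, and none passed. These were 0.44 (GFI1B), 0.29 (NFE2), -0.13 (GATA1) and -0.83 (KLF1). Of the 10 found among 14 other genes abundant in red cells 6 were tested and 0 passed, with a median of 0.11.

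Other miRNAs that are plentiful in red cells mostly had fold changes below 0, as had most miRNAs tested. Of 19 names 17 were found, and of the 17 miRNAs tested 0 were higher in JH and 2 were lower, near the 12.4% lower among all miRNAs. Of the 17, 4 had fold changes above 0 and 13 below, with a median of -0.38 beside -0.30 over all miRNAs. ssc-miR-16 had a fold change of -0.38 and ssc-miR-92a one of -0.30, and neither passed. The 2 that passed were ssc-miR-182 (log2 fold change -1.65, SE 0.31, adjusted p 0.00839) and ssc-miR-183 (-1.49, adjusted p 0.0122), which belong to 1 cluster and are made in many tissues besides red cells. ssc-miR-182 was at 25.9, 55.5 and 41.4 RPM in JH and at 164, 91.6 and 126 RPM in LD. Both calls were lost when the libraries were scaled to the same median (fold changes -1.26 and -1.10, adjusted p 0.0728) or quantile normalized (-1.37 and -1.12, adjusted p 0.0908).

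Both kinds of library were then set side by side within each pig. The ratio of HBB in RPKM to ssc-miR-451 in RPM has no absolute meaning and serves only to compare pigs. It was formed after the values were seen, and HBB alone already separated the breeds. JH1, JH2 and JH3 had ratios of 0.0949, 0.191 and 0.174, against 1.15, 0.415 and 0.421 for LD1, LD2 and LD3. Every JH pig lay below every LD pig, and the mean log2 ratios differed by -1.999, or 3.997-fold (exact permutation p = 0.1, the smallest possible, adjusted p 0.275 over the 11 ratios computed). The range with each library left out in turn was -2.25 to -1.51. JH1, the pig with the most ssc-miR-451 and ssc-miR-144, was among the lowest for HBB, and LD1, with the most HBB, had the least ssc-miR-451 and ssc-miR-144.

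The ratio of HBB to ssc-miR-144 was 4.32-fold higher in LD and that to ssc-miR-486 3.52-fold higher, again with no overlap (exact permutation p = 0.1 for both). When single libraries were left out, the log2 difference of these ratios ranged from -2.43 to -1.55 and from -2.56 (without LD2) to -1.25 (without LD1). ALAS2 over ssc-miR-451 was 4.14-fold higher in LD without overlap (exact permutation p = 0.1), with a log2 difference of -1.44 without JH1 and -2.68 without JH3. ALAS2 over ssc-miR-144 and over ssc-miR-486 overlapped between the breeds (exact permutation p = 0.2 for both). Ratios between 2 genes or 2 miRNAs, 5 in all, overlapped in every case. They include HBB over LOC100737768, which is not a member.

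**Figure D3:**
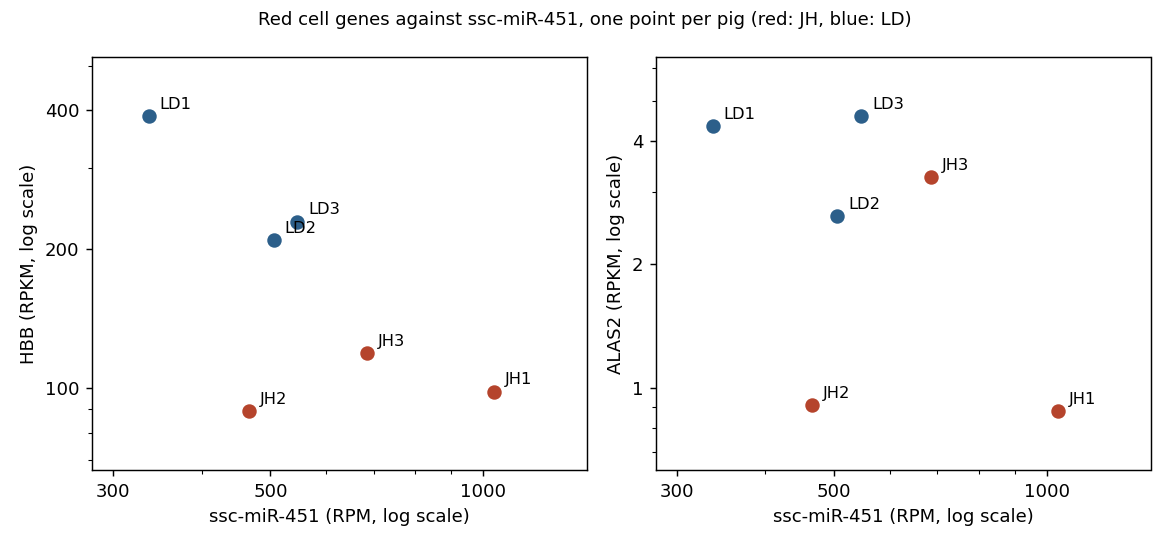
Each point is 1 pig, with ssc-miR-451 in RPM on the horizontal axis and an erythroid gene in RPKM on the vertical axis, both on log scales. The JH pigs lie below the LD pigs for HBB, and JH1 combines the highest ssc-miR-451, 1036 RPM, with an HBB of 98.3 RPKM.

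No pooled correlation is given for HBB with a miRNA, because the breeds formed separate clusters of 3 pigs. For ALAS2 Pearson's r over the 6 pigs was -0.56 with ssc-miR-144, -0.50 with ssc-miR-451 and -0.31 with ssc-miR-486, and none passed an exact permutation test (adjusted p 0.422 to 0.486). With the breed means removed these r were -0.30, -0.09 and -0.12.

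Over the 6 libraries the genes most like HBB were KLKB1 (r = 0.996), the plasma kallikrein gene, ADRA2A (0.988), an adrenergic receptor gene, LOC100154501 (0.988), IP6K3 (0.985) and NUCB2 (0.984). In each of these genes all JH values lay below all LD values, as for HBB. Every r with HBB here includes the gap between the breeds, and likeness within a breed was not tested. Of the 12990 other genes 232 reached 0.9 or more. LOC100737768 had r = 0.90 at rank 256 and ALAS2 r = 0.82 at rank 715.

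Markers of other blood cells were compared beside HBB. Of 13 white cell genes found 11 were tested and 0 passed, with 5 fold changes above 0, 6 below and a median of -0.11. Their summed level was 203 to 457 RPKM in JH and 427 to 596 RPKM in LD, mostly CD14, a receptor gene of monocytes and other cells. PTPRC, the leukocyte common antigen gene, was highest in JH2 at 22.1 RPKM and lay between 7.14 and 13.6 RPKM elsewhere. The platelet chemokine genes PPBP and PF4 were listed at 0 in all libraries, as was the hepatocyte gene APOB, so a listed 0 need not mean absence. Of the 7 platelet genes 2 were tested and 0 passed (median 0.65). The summed platelet level was 3.88 to 4.43 RPKM in JH and 1.95 to 3.65 RPKM in LD.

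Liver cell markers were compared in the same way. Of 8 hepatocyte genes 7 were tested and 0 passed, with 2 fold changes above 0, 5 below and a median of -0.67. ALB was at 27533 to 33599 RPKM in JH and 37742 to 53893 RPKM in LD, while APOA1 had a log2 fold change of 0.90. Of the 5 endothelial genes 4 were found and tested, 0 passed and the median was -0.57, with PECAM1 at 15.2 to 16.1 RPKM in JH and 25.7 to 30.1 RPKM in LD. Both medians had the sign of the HBB difference, and the part of these lists in it was not tested. Among 5 tested macrophage and scavenging genes 0 passed and the median was 0.00. HP, which binds free haemoglobin in plasma, was at 8464 to 19301 RPKM in JH and 8417 to 10727 RPKM in LD.

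**Figure D4:**
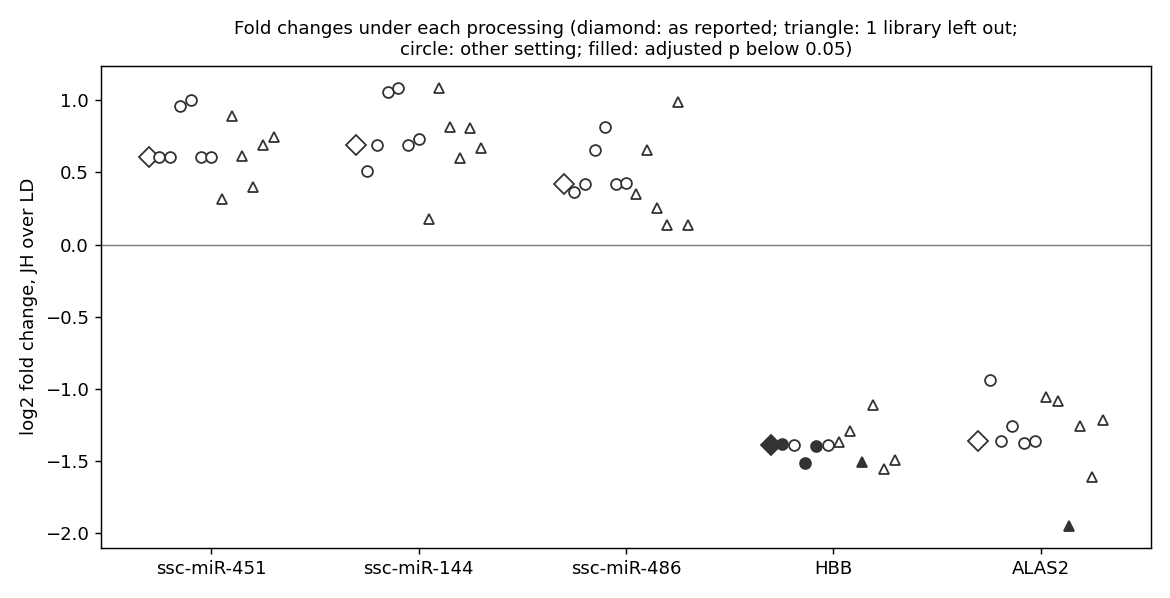
The difference of JH against LD on the log2 scale is plotted for each member, at the reported setting and under each alternative, with filled points for adjusted p below 0.05. HBB ranges from -1.56 to -1.11 and ALAS2 from -1.95 to -0.94, while the 3 miRNAs stay above 0 in every alternative.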

How the data were processed

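For mRNA the authors aligned 50 bp single reads to Sus scrofa 10.2 with TopHat (TopHat2 2.0.13 in the submitters' processing notes), took gene counts from gfold, and RPKM is what they deposited. For miRNA the authors annotated reads against Rfam, pirnabank, miRBase and Mireap, and the deposited values are RPM, scaled to the clean reads of each library. RPKM and RPM were taken as deposited.

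Breeds were compared with limma 3.58.1 (R 4.3.3), lmFit and trended eBayes, on log2(RPM + 0.5) for miRNAs of at least 1 RPM in 3 libraries and on log2(RPKM + 0.1) for genes of at least 0.5 RPKM in 3 libraries, without a block. Of 31694 gene rows 2 with duplicated date-like names were left out. Reads behind a value were recovered from the steps between values. The 107 to 119 miRNA values per library above 0 and below 40 RPM were whole reads within 0.003, and for mRNA the implied length of 98.2% of 600 low genes was whole within 0.05 bases. No miRNA value above 0 stood for under 10 reads. Reads are not independent molecules and cover counting error only. The limma p-values set a breed difference against the spread between these pigs, with variances moderated by eBayes over all features tested. Exact permutation tests were two-sided. Python 3.11.15 with pandas 2.3.3, numpy 2.4.6, scipy 1.17.1 and matplotlib 3.10.9 was used for tables and plots, and the fits were tested on simulated data.

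The members and gene lists were chosen with earlier results of these data known. Named are the members, the genes of the hand-written lists, the 5 features most like HBB or ssc-miR-451 by Pearson's r, and LOC100737768, LOC100515788 and their RefSeq neighbours. The alternatives were other pseudocounts, no filter, quantile and median scaling, a replicate block, the study's thresholds, breed means removed and each library left out, and, after seeing the data, limma's voom on recovered reads and the ratios. No sequence or coordinate is given, since the annotation used here is of another build than the files.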

Additional observations from a re-analysis of the deposited data

How the results depend on the processing

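The direction of the 5 members was the same in all 11 (genes) or 12 (miRNAs) alternatives. Some of these could not alter it: the replicate block and the fit without a filter leave each fold change as it was. For HBB, with all JH below all LD, leaving out a library could not alter it either. ssc-miR-451 ranged from 0.32 to 1.00 (adjusted p 0.0664 to 0.561), ssc-miR-144 from 0.18 to 1.09 (0.0988 to 0.674) and ssc-miR-486 from 0.13 to 0.99 (0.0655 to 0.891), with 0 calls. Without JH1 the fold changes were 0.18 for ssc-miR-144 and 0.32 for ssc-miR-451. HBB passed in 4 of 11 alternatives (adjusted p 0.0385 to 0.154). It was -1.39 without a filter (adjusted p 0.0673) and -1.56 to -1.11 with each library left out. ALAS2 ranged from -1.95 to -1.06 with each library left out and passed without JH3 alone (-1.95, adjusted p 0.0318). TFRC passed in 6 of 11 alternatives, ssc-miR-146b in 5 of 12, and DMTN, not called as reported, in 1 of 11.

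The number of miRNAs past the test, 32, became 6 after quantile normalization, 10 after median scaling and 11 to 34 with each library left out (11 without LD3). The number of genes, 310, became 200 with no filter and 63 to 403 with each library left out (157 without JH1, 145 without JH2, 63 without LD1, 84 without LD2, 116 without LD3). Fewer samples were fitted in these last settings, and the cause of the other changes was not tested. The r of ssc-miR-144 and ssc-miR-451 was 0.88 with breed means removed (adjusted p 0.667, exact permutation within breeds only, which allows few orders).

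JH and LD pigs share replicate numbers only. The deviations of same-numbered libraries correlated at -0.07, -0.32 and -0.09 across miRNAs and at -0.02, 0.05 and 0.18 across genes. With the replicate block HBB was -1.39 (adjusted p 0.0526), 17 miRNAs and 253 genes passed, and DMTN passed (adjusted p 0.0494).

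The 2 planned count models were not run. The deposited values are RPM and not counts, and limma's voom on recovered reads, run in their place, called 29 miRNAs. Depth limits ALAS2, HBM and the membrane genes, some of which rest on under 20 reads per library.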

Other observations

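Genes that textbooks name as targets of the 3 erythroid miRNAs were looked up in the same libraries. Of the 8 in the list 7 were found and tested, 0 passed and the median log2 fold change was -0.03, beside 0.04 over all genes. YWHAZ, a target of miR-451 in erythroid cells that encodes an adaptor protein, was at 27.5 to 29.8 RPKM in JH and 24.7 to 35.0 RPKM in LD. CAB39, another target of miR-451, had a log2 fold change of 0.54 (adjusted p 0.283), and NFE2L2, a target of miR-144 that encodes the oxidative stress factor NRF2, one of 0.19 (adjusted p 0.724). FOXO1, a target of miR-486, was at 2.70 to 5.76 RPKM in JH and 8.37 to 9.31 RPKM in LD. All JH values lay below all LD values, as in 12.5% of genes tested. The log2 fold change of FOXO1, -1.09, did not pass (adjusted p 0.108), nor did that of FOXO3, -1.47. Of the 7 tested genes 3 had fold changes above 0 and 4 below.

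Among miRNAs known from white cells and platelets 5 were tested and 1 passed (12.4% of all miRNAs passed lower in JH), ssc-miR-146b, lower in JH at 21.6, 36.6 and 22.2 RPM against 45.4, 55.1 and 63.3 RPM in LD (log2 fold change -1.04, adjusted p 0.0237). Leaving out JH1, JH3, LD2 or LD3 ended that call, at fold changes of -0.91, -0.93, -1.03 and -0.93, as did median scaling (-0.65, adjusted p 0.221), quantile normalization (-0.72, 0.239) and the replicate block (0.0557). The median of these 5 was -0.23, beside -0.30 over all miRNAs. Fold changes were above 0 for 1 of them and below 0 for 4. Both arms of miR-142, a miRNA of blood cell lineages, were tested: ssc-miR-142-3p was highest in JH1 at 157 RPM and ssc-miR-142-5p lowest in JH1 at 70.8 RPM. Of the 6 tested miRNAs abundant in liver 0 passed, and their median was 0.01.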
